A study of Mus musculus with 10 samples.

Results

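A group of 10 genes that fill, empty and bypass the intracellular calcium store was followed through the mouse enamel organ, the epithelium that makes tooth enamel. They were chosen by symbol: the store sensors Stim1 and Stim2, the entry channels Orai1 and Orai3, the release channels Itpr1, Itpr2 and Itpr3, the store pump gene Atp2a2, and the exporters Atp2b1 and Slc8a1. All 10 of 10 were listed in both tables of the series, which held 16292 genes for ameloblasts and 16638 for the stratum intermedium, and all 10 passed the filter on low values. Ameloblasts secrete the enamel matrix and later move mineral into it, and the stratum intermedium is the cell layer that backs them. Both layers were cut by laser microdissection from frozen hemi-mandibles of mice. One genotype was wild type (WT), and in the other (KO) the gene of claudin-10, a tight junction protein forming paracellular ion channels, was knocked out. Each layer had 2 WT libraries and 3 KO libraries, 10 libraries in all. Library names carried the prefixes WT10, WT5, KO1, KO3 and KO9 in both layers, which were taken to mark 5 mice, although the labels do not say so. The names also carried a library group, whose meaning is not known here. It was 1 for WT5 and KO3, 2 for WT10 and KO9 and 3 for KO1 alone, in both layers. What sets KO1 apart therefore cannot be told apart from its group. Age, strain, the deleted part of Cldn10 and whether the deletion covered every tissue were not stated in the labels.

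Calcium enters ameloblasts through a relay between the endoplasmic reticulum and the plasma membrane. IP3 receptors, encoded by the Itpr genes, let calcium out of the reticulum. STIM proteins in its membrane sense the loss and open Orai channels at the cell surface, which is store-operated calcium entry. The SERCA pump encoded by Atp2a2 refills the store, and the plasma membrane pump encoded by Atp2b1 and the sodium calcium exchanger encoded by Slc8a1 carry calcium out of the cell. Inherited loss of STIM1 or ORAI1 in people causes poorly mineralized enamel.

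The libraries differed in ways that bear on these genes. Cldn10 averaged 675.9 normalized counts in WT and 278.9 in KO ameloblasts, and 4811 in WT and 618.2 in KO stratum intermedium. Library sums ran from 21006977 to 26856177 normalized counts. Xist exceeded the Y-linked gene Ddx3y in KO1 and KO3 and was below it in WT10, WT5 and KO9, in both layers, so the libraries of KO1 and KO3 differ from all WT libraries in sex as well as genotype. The summed share of 8 ameloblast markers was 2.46% to 9.56% of an ameloblast library and 0.136% to 1.05% of a stratum intermedium library. The 7 markers of the stratum intermedium did not set the layers apart, with 0.128% to 0.223% in ameloblasts and 0.157% to 0.336% in the stratum intermedium. Markers of odontoblasts and pulp made up 2.6% to 4.44% and 1.77% to 4.74%, and the source of these transcripts was not tested. Dspp was counted both in this list and in that of ameloblasts. WT5 held the largest shares of red blood cell and osteoclast markers in both layers. In ameloblasts these were 1.28% and 0.756%, against 0.0814% to 0.244% and 0.102% to 0.452% in the other libraries. In the stratum intermedium of WT5 they were 0.911% and 0.919%. The part of such cells in the differences below was not tested. The layers of WT5 lay closest to each other. The SD over 15567 genes of the ameloblast minus stratum intermedium difference was 0.62 on the log2 scale in WT5. It was 0.89 in KO3, also of library group 1, and 1.35 to 1.73 in the other pairs. Genes at 0 numbered 33 and 41 in WT5 and KO3 ameloblasts and 36 and 109 in their stratum intermedium. The other libraries had 210 to 854, and the part of this in the differences below was not tested.

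The clearest pattern among the 10 genes lay between the layers. Atp2b1, Itpr3, Itpr1 and Stim2 were higher in ameloblasts in all 5 library pairs, and Slc8a1 was lower in all 5. Because each table had been normalized separately, a level in one layer was not tested against the other. Differences are given per prefix as ameloblast minus stratum intermedium on the log2(normalized count + 1) scale, less the median of that difference over all 15567 genes measured in both layers, which lay between -0.108 and -0.173. Of all genes, 11.1% were higher in ameloblasts in all 5 pairs and 9.96% were lower in all 5, against 4 and 1 of the 10 members. The median of the members' mean differences was 0.39, with 0.0 over all genes. Of 8 ameloblast markers 5 were higher in ameloblasts in all 5 pairs (median difference 2.85). So were 3 of 6 odontoblast and pulp markers (median 0.66), with Dspp in both lists. The part of such tissue in the members that were higher in ameloblasts was not tested.

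Promoter sequences are shown for Itpr3 and Slc8a1, which lay toward opposite ends of the layer difference. Windows of 250 bases before the RefSeq start (GRCm38.p6) were matched by symbol for 8 of the 10 members, all but Itpr1 and Atp2a2. Itpr3 was read from chr17:27057054-27057303 on the plus strand and Slc8a1 from chr17:81738388-81738637 on the minus strand. Each is written 5′ to 3′ along the gene, and capitals mark any match, on either strand, to the GC box, spelled GGGCGG, the CCAAT box, the TATA box, spelled TATAAA, the core GGAAA of sites for NFAT factors, which calcium activates through calcineurin, or the core GATAA of sites for GATA factors. No match to one of these motifs overlapped a match to another in the printed windows.
Itpr3: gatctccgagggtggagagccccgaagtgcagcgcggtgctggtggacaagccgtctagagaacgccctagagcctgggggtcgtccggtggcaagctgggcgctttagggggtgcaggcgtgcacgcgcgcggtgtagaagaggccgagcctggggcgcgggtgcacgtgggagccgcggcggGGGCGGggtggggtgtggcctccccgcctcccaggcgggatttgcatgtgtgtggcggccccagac
Slc8a1: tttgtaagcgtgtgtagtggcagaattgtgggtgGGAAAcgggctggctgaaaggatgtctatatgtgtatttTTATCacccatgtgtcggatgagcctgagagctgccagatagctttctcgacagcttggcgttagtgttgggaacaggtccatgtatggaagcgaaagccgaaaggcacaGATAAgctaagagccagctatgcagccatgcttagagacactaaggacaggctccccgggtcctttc
The Itpr3 window held 1 GC box and no match to the other motifs, at 72.0% G and C. The Slc8a1 window held no GC box, 1 NFAT core and 2 GATA cores, at 50.4% G and C. Over 32851 RefSeq windows of the same length, 32.7% held a GC box, 33.8% a CCAAT box, 12.4% a TATA box, 55.6% an NFAT core and 22.6% a GATA core, with a median of 52.4% G and C. Of the 9 windows of the members, with 2 for Atp2b1, 8 held a GC box, 4 a CCAAT box, 3 an NFAT core, 2 a GATA core and 0 a TATA box. These matches describe the letters of the windows only, and no measurement here bears on binding. The windows of Atp2b1 are not printed, as 236 bases of the first lie in annotated exons of the gene.

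Atp2b1 (ENSMUSG00000019943, GRCm38 chromosome 10, 98914406 to 99026143, plus strand), the plasma membrane calcium pump, had the highest median of the members per kb of exon in both layers. In the stratum intermedium Atp2a2 exceeded it in WT10 and KO9, where the ratio of Atp2b1 to Atp2a2 was 0.869 and 0.804. That order depends on the length used. Per kb of the longest coding transcript, Atp2b1 stood above Atp2a2 there, at 638 against 466 in WT10 and 589 against 465 in KO9. Its ameloblast values were 29235.5 and 14471 normalized counts in WT10 and WT5, and 33515.5, 31729 and 19761 in KO1, KO3 and KO9. In the stratum intermedium they were 4549.6 and 10711 in WT10 and WT5, and 6305, 7352 and 4199.5 in KO1, KO3 and KO9. Every ameloblast library stood above every stratum intermedium library. The mean difference between layers was 2.13 ± 0.87 (SD, n = 5), or 4.36-fold, at the 98.9th percentile of all genes. WT5 gave the smallest difference, 0.61, and the other 4 pairs gave 2.27 to 2.79.

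Slc8a1 (ENSMUSG00000054640, chromosome 17, 81373105 to 81738377, minus strand), the sodium calcium exchanger best known from heart muscle, ran the other way and had the lowest median of the members per kb of exon in both layers. It stood at 19.2 and 48.7 in WT10 and WT5 ameloblasts and at 39.3, 26.9 and 67.9 in those of KO1, KO3 and KO9. Stratum intermedium values were 154 and 172 in WT10 and WT5 and 246, 155 and 257 in KO1, KO3 and KO9. The layers did not overlap, and the mean difference was -2.20 ± 0.51 (SD, n = 5), or 4.59-fold higher in the stratum intermedium, at the 1.0th percentile of all genes. Within a library, Atp2b1 exceeded Slc8a1 by 359 to 1880 times per kb of exon in ameloblasts and by 20.2 to 77.1 times in the stratum intermedium. Some markers of other tissues were also lower in ameloblasts. Of 7 smooth muscle and pericyte markers 5 were lower in ameloblasts in all 5 pairs, with a summed share of 0.0118% to 0.0341% there and 0.0433% to 0.0732% in the stratum intermedium. Of 6 endothelial markers 5 were lower in all 5 pairs (0.00556% to 0.0196% against 0.0274% to 0.0378%), and of 11 skeletal muscle markers 2 were (0.0136% to 0.259% against 0.0832% to 0.531%). Of these lists, Cnn1, Mb, Myh1, Myh2 and Myh4 were listed at 0 in at least 1 ameloblast library and no marker in any stratum intermedium library. Of all genes 9.96% were lower in ameloblasts in all 5 pairs. No marker of osteoclasts, macrophages, red blood cells or nerve measured in both layers was. In WT5 the skeletal muscle share was higher in ameloblasts, at 0.259% against 0.243%. The part of muscle and vessel tissue in the level of Slc8a1 was not tested. In bulk captures, fewer cells of a type and less RNA per cell cannot be told apart.

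**Figure D1:**
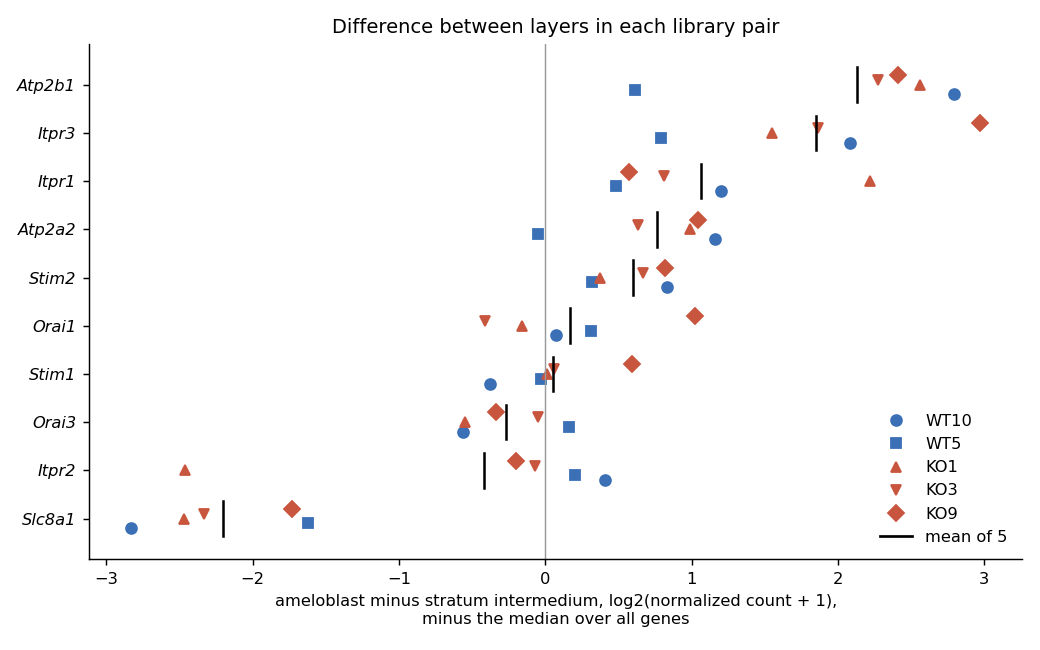
Ameloblast minus stratum intermedium difference of each of the 10 genes, in log2(normalized count + 1) less the median over all genes, with 1 symbol per library pair (blue WT, red KO) and a black line at the mean of 5. Atp2b1 and Itpr3 lie to the right and Slc8a1 to the left in all 5 pairs, with WT5 nearest to 0 for Atp2b1, Itpr3 and Slc8a1.

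Among the release channels, Itpr3 (ENSMUSG00000042644, chromosome 17, 27057304 to 27122223, plus strand), the IP3 receptor typical of secretory epithelia, was the most abundant per kb of exon. It stood at 6378 and 1951 in WT10 and WT5 ameloblasts and at 4780.2, 3708 and 4809 in those of KO1, KO3 and KO9. Stratum intermedium values were 1624 and 1276 in WT10 and WT5 and 1801, 1139.7 and 691 in KO1, KO3 and KO9. No stratum intermedium library reached the lowest ameloblast library, WT5. The mean difference between layers was 1.85 ± 0.80 (SD, n = 5), or 3.6-fold, at the 98.3rd percentile of all genes. An antisense gene, Itpr3os, shares 233 exon bases with it on the opposite strand, and the labels do not state whether counting used strand.

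Itpr1 (ENSMUSG00000030102, chromosome 6, 108213096 to 108551109, plus strand), the IP3 receptor known best from neurons, stood at 1968 and 1669 in WT10 and WT5 ameloblasts. The KO libraries spread widely around these, with 3319.9 in KO1, 1445 in KO3 and 957 in KO9. The stratum intermedium had 919.6 and 1345 in WT10 and WT5 and 789, 917 and 727.5 in KO1, KO3 and KO9. It was higher in ameloblasts in all 5 pairs, by 1.06 ± 0.71 (SD, n = 5), or 2.08-fold, and KO1 alone gave 2.22 against 0.48 to 1.2 in the others. Itpr2 (ENSMUSG00000030287, chromosome 6, 146108299 to 146502223, minus strand), which encodes the remaining IP3 receptor, had no common direction. Its ameloblast values were 233.5 and 405 in WT10 and WT5 and 79.8, 130.3 and 292 in KO1, KO3 and KO9, and its stratum intermedium values were 189, 397, 491, 153 and 378 in the same order. KO1 stood apart with a layer difference of -2.46, where the other 4 pairs gave -0.2 to 0.41.

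Taken per kb of exon within each library, where library scaling cancels, Itpr3 made up the largest share of the 3 IP3 receptor genes in every library. Its share was 85.2% and 64.6% in WT10 and WT5 ameloblasts and 74.0%, 82.4% and 88.1% in those of KO1, KO3 and KO9. The stratum intermedium shares were 74.1%, 58.5%, 72.4%, 67.7% and 54.0% in the same order, and in all 5 pairs it was the lower of both layers. The share of Itpr2 ran the other way in all 5 pairs, with 0.8% to 8.2% in ameloblasts and 5.3% to 18.0% in the stratum intermedium. The share of Itpr1 had no common direction, at 8.6% to 27.2% and 15.6% to 30.4%. The size of these shares depends on the length used. Per kb of the longest coding transcript, Itpr3 and Itpr1 stood at 142 and 136 in WT5 stratum intermedium and at 76.8 and 73.7 in that of KO9. In normalized counts Itpr1 was the higher gene in both of these libraries.

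**Figure D2:**
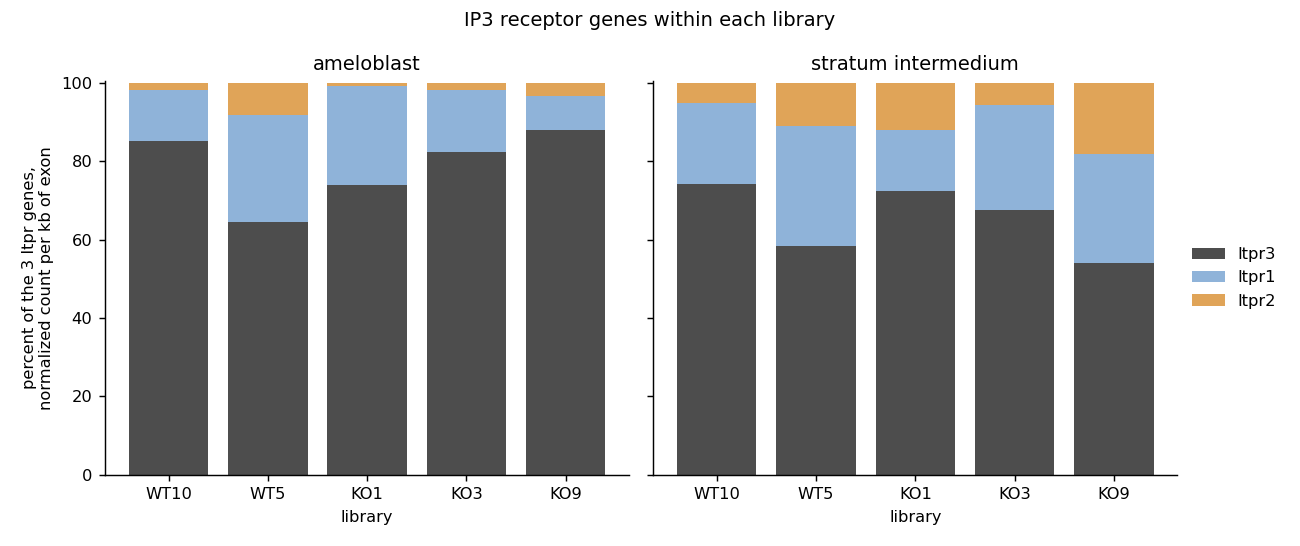
Share of Itpr3, Itpr1 and Itpr2 in the sum of the 3 genes, in percent of normalized counts per kb of exon, as stacked bars for each library of each layer. Itpr3 is the largest part of each of the 10 bars, and the Itpr2 part is larger in the stratum intermedium bar than in the ameloblast bar of the same prefix.

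The store pump gene Atp2a2 (ENSMUSG00000029467, chromosome 5, 122453513 to 122502225, minus strand), also the pump of slow and heart muscle, had the second highest median per kb of exon in both layers. It stood at 4331 and 2403.5 in WT10 and WT5 ameloblasts and at 3679, 3939 and 3819 in those of KO1, KO3 and KO9. Its stratum intermedium values were 2092, 2811, 2041, 2831 and 2086.5 in the same order. It was higher in ameloblasts in 4 of 5 pairs, by 0.76 ± 0.49 (SD, n = 5), and WT5 was the exception at -0.05. The shares of skeletal muscle markers in both layers are given above for Slc8a1, and the part of such tissue in the level of Atp2a2 was not tested.

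The sensors and entry channels differed less between layers. Stim1 (ENSMUSG00000030987, chromosome 7, 102267806 to 102437319, plus strand), the main sensor of an emptied store, stood at 1152 and 1143 in WT10 and WT5 ameloblasts and at 1299, 1409 and 1422 in those of KO1, KO3 and KO9. Its stratum intermedium values were 1611, 1317, 1426, 1503 and 1067 in the same order. The ranges overlapped, and the mean difference between layers was 0.05 ± 0.35 (SD, n = 5). Stim2 (ENSMUSG00000039156, chromosome 5, 53998499 to 54121057, plus strand), which responds to smaller losses of store calcium, stood at 1633, 959, 1041, 1240.0 and 1552 in ameloblasts and at 989.5, 864, 892, 869 and 989 in the stratum intermedium, in the same order. It was higher in ameloblasts in all 5 pairs, by 0.60 ± 0.24 (SD, n = 5), or 1.52-fold. The ratio of Stim1 to Stim2 per kb was accordingly lower in the ameloblast library of every pair, at 0.349 to 0.617 against 0.534 to 0.856. Which of these genes was higher depends on the length used. With the longest coding transcript in place of all exons (chosen after the data were seen), the median of Stim1 was 298 per kb and that of Stim2 252 in ameloblasts, while with all exons the medians were 125 and 242.

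Orai1 (ENSMUSG00000049686, chromosome 5, 123015074 to 123030456, plus strand), the pore of store-operated entry, lay near the middle of all genes per kb of exon. Its median percentile was 46.4 in ameloblasts and 46.1 in the stratum intermedium. Orai1 stood at 147.5 and 124.5 in WT10 and WT5 ameloblasts and at 136, 98.5 and 296 in those of KO1, KO3 and KO9. Its stratum intermedium values were 151, 113, 168, 147 and 164 in the same order. KO9 ameloblasts were the one library well above the rest, and the layer difference of 0.17 ± 0.55 (SD, n = 5) had no common direction. Orai3 (ENSMUSG00000043964, chromosome 7, 127769815 to 127775150, plus strand), a related pore subunit, stood at 587, 426, 458.5, 401 and 377 in ameloblasts and at 931, 429, 744, 461 and 539.5 in the stratum intermedium, in the same order. It was lower in ameloblasts in 4 of 5 pairs (mean -0.27 ± 0.32, SD, n = 5). Per kb, Orai3 exceeded Orai1 in every library, by 1.36 to 4.36 times in ameloblasts and by 3.37 to 6.6 times in the stratum intermedium.

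**Figure D3:**
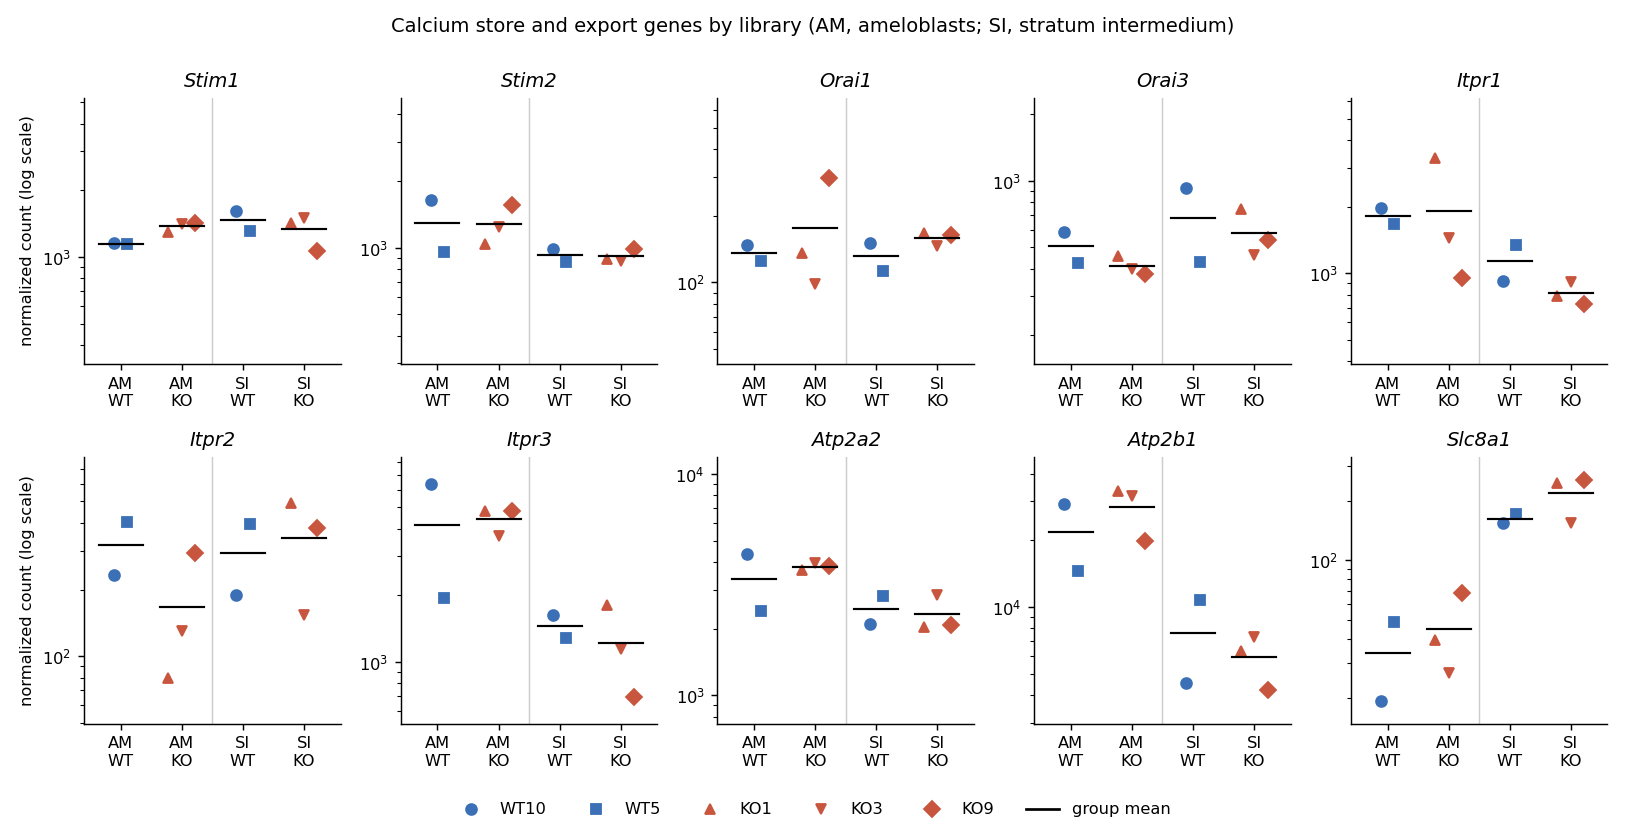
Normalized counts of the 10 genes in each library on a log scale, 1 panel per gene, for ameloblasts (AM) and stratum intermedium (SI) in WT (blue) and KO (red), with a symbol per library prefix and a black line at the group mean. The panels of Atp2b1, Itpr3 and Slc8a1 separate the layers, and within a layer the WT and KO points overlap except for Stim1 in AM and Itpr1 in SI.

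Ordered by the median per kb of exon, ameloblasts ran Atp2b1 (1921), Atp2a2 (628), Itpr3 (530.0), Stim2 (242), Orai3 (199), Stim1 (125), Itpr1 (91.1), Orai1 (59.3), Itpr2 (15.8) and Slc8a1 (2.09). The ranges of the 5 libraries did not overlap between Atp2b1 and Atp2a2, between Orai3 and Stim1, between Orai1 and Itpr2 or between Itpr2 and Slc8a1, and they did between the other neighbours. The place of Stim1 depends on the length used: with the longest coding transcript its median of 298 per kb lay above those of Stim2 (252) and Orai3 (199), and it moved from place 6 to 4 in ameloblasts and from 6 to 3 in the stratum intermedium. The stratum intermedium order was Atp2b1 (414), Atp2a2 (344), Orai3 (252), Stim2 (174), Itpr3 (141), Stim1 (138), Orai1 (65.9), Itpr1 (50.1), Itpr2 (25.6) and Slc8a1 (9.13). There the gaps without overlap lay between Orai3 and Stim2, between Stim1 and Orai1 and between Itpr1 and Itpr2. Itpr3 therefore stood at the 86.0th percentile of all genes per kb in ameloblasts (median of 5) and at the 63.5th in the stratum intermedium, and Slc8a1 at the 3.8th and 13.6th.

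The second question was whether these genes differ without claudin-10. None of the 10 passed in either layer. With limma, 0 of 10 members had an adjusted p under 0.05 in ameloblasts or the stratum intermedium, as did 0% of 16212 and 0% of 16543 genes tested. At an unadjusted p under 0.05 there were also 0 of 10 in each, against 3.07% and 2.06% of all genes. Cldn10, the gene knocked out, did not pass the adjusted threshold either, despite its lower KO means given above. The missing calls therefore do not show that the members are unchanged. Groups without overlap were seen for 1 of 10 members in each layer. Among all genes this held for 18.4% in ameloblasts (9.09% with KO above WT, 9.26% below) and 15.2% in the stratum intermedium (7.76% above, 7.44% below). The median KO minus WT difference over the members was 0.23 in ameloblasts and -0.11 in the stratum intermedium, beside 0.04 and 0.02 over all genes. The estimate was above 0 for 7 of 10 members in ameloblasts and 3 of 10 in the stratum intermedium, where it was for 53% and 51.9% of all genes. Without WT5 it was above 0 for 3 of 10 in ameloblasts (median -0.21), and in the stratum intermedium for 5 of 10 without WT10, WT5 or KO3.

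Stim1 was the member whose ameloblast groups did not overlap, with 3 KO libraries above both WT libraries (means ± SD of 1147 ± 5.84 over 2 libraries and 1377 ± 67.7 over 3). Its log2 difference was 0.26 (SE 0.22, 95% interval -0.25 to 0.78, adjusted p = 0.989 in limma, exact permutation p = 0.1, the smallest that 2 against 3 libraries allow). Its stratum intermedium difference was -0.14 (SE 0.24) and the groups overlapped. Itpr1 was the member whose stratum intermedium groups did not overlap, with 3 KO libraries below both WT libraries (1132 ± 301 and 811 ± 96.6). Its log2 difference was -0.46 (SE 0.26, 95% interval -1.08 to 0.16, adjusted p = 1.0 in limma, exact permutation p = 0.1). It was -0.19 without WT5 and -0.74 without WT10. In ameloblasts Itpr1 differed by -0.12 (SE 0.50), with KO libraries on both sides of the WT libraries.

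The largest estimate was that of Itpr2 in ameloblasts, at -1.08 (SE 0.61, 95% interval -2.53 to 0.36, adjusted p = 0.989 in limma). WT averaged 319 ± 121 and KO 167 ± 111, and the groups overlapped through KO9. The estimate was -0.65 without KO1, -0.68 without WT5 and -1.58 without KO9. KO1 and KO3, the low libraries, are those of the other sex. With sex as a covariate the estimate was -0.08, which is the difference of KO9 alone from the WT libraries. Under that covariate the largest ameloblast estimates among the members were those of Orai1 and Slc8a1, both 1.12 and also from KO9 alone. Atp2b1 differed by 0.42 in ameloblasts (SE 0.39, interval -0.50 to 1.34) and by -0.27 in the stratum intermedium (SE 0.39, interval -1.19 to 0.65). Its ameloblast estimate rested on WT5, the lowest library: it was -0.08 without WT5 and 0.93 without WT10. Itpr3 changed sign in the same way, with 0.32 (SE 0.47) from all libraries, -0.54 without WT5 and 1.17 without WT10. Atp2a2 went from 0.24 (SE 0.29) to -0.18 without WT5. For Stim2, Orai1, Orai3 and Slc8a1 the estimates lay between -0.28 and 0.43 in both layers, each within 1 SE of 0. The intervals were widest for Slc8a1 in ameloblasts, -1.48 to 2.33, and narrowest for Stim1 there, so a difference of 1 on the log2 scale lies inside the interval for some of these genes and outside it for others.

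**Figure D4:**
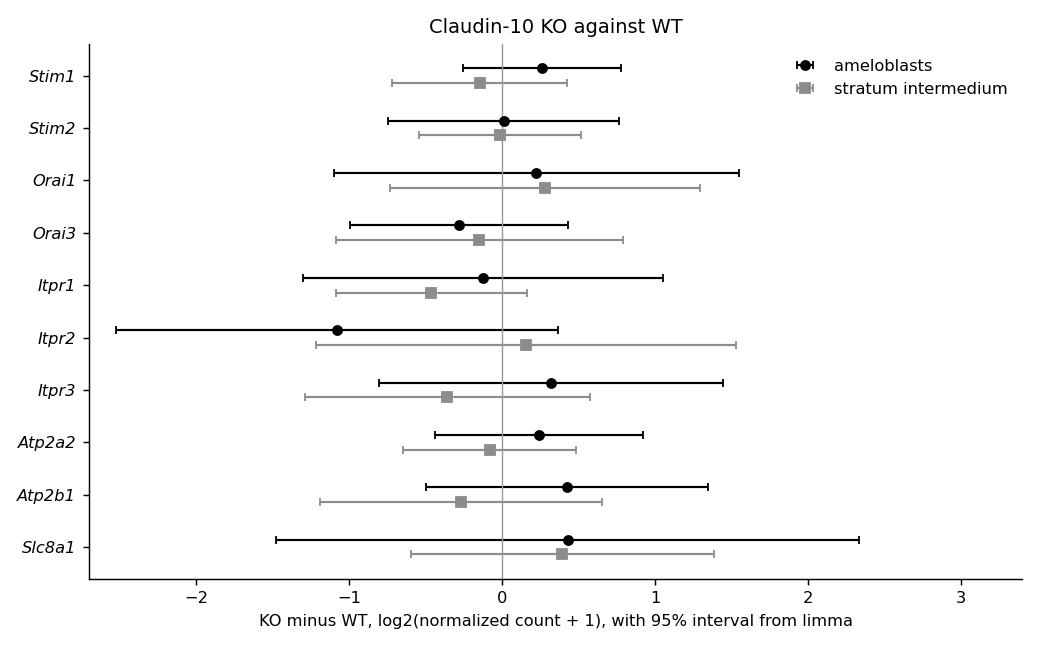
KO minus WT difference of each gene in log2(normalized count + 1) with its 95% interval from limma, in black for ameloblasts and grey for the stratum intermedium (2 WT and 3 KO libraries each). All 20 intervals include 0, and that of Slc8a1 in ameloblasts is the widest.

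The KO minus WT difference was also compared between layers, as the ameloblast minus stratum intermedium value of each prefix in KO against WT, where a constant factor between the tables cancels. With limma, 0 of 10 members passed (0% of 15567 genes), and 0 had an unadjusted p under 0.05 (5.15% of genes). The KO and WT prefixes did not overlap for 2 members, Stim1 and Itpr2, against 22.4% of genes (10.9% with KO above WT, as for Stim1, and 11.5% below, as for Itpr2). For Stim1 the difference was 0.41 (SE 0.28, adjusted p = 0.836), and for Itpr2 it was -1.24 (SE 0.78, adjusted p = 0.836). Atp2b1 gave 0.69 (SE 0.58) and Itpr3 0.68 (SE 0.52). Without WT5 these became -0.43 and -0.004, and without WT10 they were 1.82 and 1.36. With sex as a covariate the values were 0.76 for Stim1, -0.54 for Itpr2 and 1.51 for Itpr3. These are differences of KO9 alone from the WT prefixes. The layer difference itself, with its 5 pairs, was present in KO and WT alike for Slc8a1, with means of -2.18 and -2.23.

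Genes that work beside the 10 members were read from 11 lists. None of them passed an adjusted p of 0.05 in limma in either layer. At an unadjusted p under 0.05 there were 3 of 103 list genes in ameloblasts, Pln, Tmx1 and Canx, and 1 of 105 in the stratum intermedium, Trpc6. These shares of 2.91% and 0.952% did not exceed those of all genes, 3.07% and 2.06%, so the values of the 4 genes are given as a description. The cation channel gene Trpc6 stood at 112 and 76.6 in WT10 and WT5 stratum intermedium and at 278, 221 and 236 in KO1, KO3 and KO9 (log2 1.39, SE 0.43, adjusted p = 1.0 in limma). It was the only such gene of 16 partners and regulators of store-operated entry. Pln, which encodes phospholamban, an inhibitor of the SERCA pump, stood at 6.2 and 0 in WT10 and WT5 ameloblasts and at 13.6, 41.9 and 92.0 in KO1, KO3 and KO9. Tmx1, an oxidoreductase of the reticulum that also restrains that pump, stood at 3941.5 and 3199.6 in WT10 and WT5 and at 6164, 5300.1 and 4841 in KO1, KO3 and KO9 (log2 0.61, SE 0.23, adjusted p = 0.989 in limma).

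The 16 calcium-binding proteins of the store lay to one side in ameloblasts. The log2 difference was above 0 for 16 of 16, and its median was 0.46 on the log2 scale, beside 53% of all genes and a median of 0.04. Leaving out 1 library, an alternative chosen after the data were seen, gave 14 to 16. Casq2 counts among the 16 (log2 0.18, SE 1.56) although its mean normalized count was 1146 in WT and 773 in KO. Canx, which encodes the chaperone calnexin, stood at 22974 and 17826 in WT10 and WT5 and at 38414, 34043 and 26921 in KO1, KO3 and KO9 (log2 0.70, SE 0.27, adjusted p = 0.989 in limma). The chaperone gene Hspa5 gave 0.42 (SE 0.35) and Calr, the main buffer of the store, 0.37 (SE 0.33), both named after their values were seen. Without KO1 and KO3, which leaves KO9, of the same sex as both WT mice, 10 of 16 were above 0 with a median of 0.10. The stratum intermedium had 10 of 16 above 0 (median 0.08), 2 of 16 without WT10 (median -0.26), 13 of 16 without WT5 (median 0.34) and 6 of 16 without KO1 and KO3 (median -0.11).

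The counts of the other lists, as genes with a log2 difference above 0, moved with single libraries and are given with the lowest and highest count when 1 library was left out, an alternative chosen after the data were seen. Partners and regulators of store-operated entry had 7 of 16 in ameloblasts (6 to 8) and 10 of 16 in the stratum intermedium (8 to 10). Mitochondrial uptake genes had 7 of 11 (6 to 7) and 8 of 11 (6 to 9). Calcineurin and NFAT genes had 4 of 11 (3 to 5) and 5 of 11 (2 to 7), the 2 without WT10. Phospholipase C genes, whose products make IP3, had 5 of 10 (2 to 5) and 8 of 11 (3 to 10), with 2 and 3 without WT10 and, in ameloblasts, 3 without KO3 or KO9. Other calcium channels of the plasma membrane had 9 of 14 (6 to 11) and 11 of 14 (7 to 12), with 6 in ameloblasts without WT10, and with 7 in the stratum intermedium without WT5 and 6 without KO1 and KO3. Other release channels of the store had 4 of 5 (2 to 4) and 3 of 6 (0 to 4), with 2 and 0 without WT10. Other calcium pumps had 4 of 4 (3 to 4) and 2 of 4 (1 to 2), the 1 without WT10 or KO1. Other sodium calcium exchangers had 1 of 5 (1 to 3) and 3 of 6 (2 to 4), with 3 in ameloblasts without WT10 and 2 without WT5, KO1 or KO3. Regulators of the store pump had 4 of 6 (3 to 4) and 3 of 5 (3 to 4). Cytosolic calcium-binding proteins had 4 of 5 (2 to 4) and 4 of 5 (3 to 5), with 2 in ameloblasts without WT5 or without KO1 and KO3.

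Between layers, some of the named partners stood further apart than most members. Calb1, which encodes the cytosolic calcium buffer calbindin-D28k, an abundant protein of ameloblasts, stood between 57289 and 308835 in ameloblasts and between 8439 and 42493 in the stratum intermedium, with a mean difference of 2.59 ± 1.17 (SD, n = 5). Trpm7, a magnesium and calcium channel, stood between 4998 and 14348 in ameloblasts and between 2442 and 5572 in the stratum intermedium, with a mean difference of 1.5 ± 0.87 (SD, n = 5) that fell to 0.04 in WT5. Orai2, the remaining Orai gene, had no common direction (0.48 ± 0.72, SD, n = 5). Slc24a4, which encodes the exchanger that carries calcium to maturing enamel, was not listed under that symbol in ameloblasts. In the stratum intermedium it stood at 59.8 and 12.7 in WT10 and WT5 and at 0, 11.5 and 31.8 in KO1, KO3 and KO9.

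Likeness was described by Pearson correlation over the 10 libraries, each table centred on its own mean, among 15567 genes. The libraries share normalization within a table and mice between tables, so the values are descriptions. The member most like Atp2a2 was Atp2b1 (r = 0.79), and the reverse held too. The other members' closest partners among the 10 lay between 0.45 and 0.60, with Stim1 closest to Itpr3 (0.54), Stim2 closest to Orai1 (0.54) and Orai1 closest to Slc8a1 (0.60). Over all genes, Stim1 was most like 4732487G21Rik (0.93), Gm13814 (0.93) and Zfp58 (0.92), Orai1 most like Ankrd10 (0.93), Shld2 (0.93) and Itsn1 (0.92), and Atp2a2 most like Vldlr (0.97), Schip1 (0.94) and Slc41a2 (0.93).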

How the data were processed

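The signal values were deposited by the authors as normalized counts per gene, 1 table per layer, named as DESeq2 output with Ensembl release 101 and outliers left out. Per the submitters' processing notes, STAR 2.5.2b, featureCounts, DESeq, Picard 2.8.1 and FastQC are listed with GRCm38. The labels' protocols name a stranded poly(A) library kit. Every listed gene reached 10 in at least 3 libraries, as read from the values. Between 36.1% and 58.4% of values under 60 lay within 0.1 of whole steps, so reads could not be recovered and depth is unknown. There were 0 unused value columns.

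Values were log2-transformed after adding 1, and genes averaging under 10 were dropped. The limma package (3.58.1, R 4.3.3) then tested KO against WT in each table, two-sided, with a mean-variance trend and Benjamini-Hochberg adjustment over all genes. A log2(value + 1) difference understates changes of low genes. The layer test used library pairs by prefix, with the spread fitted against mean level. P-values measure only the spread between libraries, which may be technical if they were not separate mice. Exon lengths (16282 and 16627 genes) and positions came from GENCODE M21, and promoters from RefSeq. Means are given ± SD. Members, lists and tests were chosen with earlier results of these data known. All members were named, other list genes at an unadjusted p under 0.05 or for their known role. Alternatives changed the pseudocount, filter, scaling, variance moderation, library weights, covariates and the libraries used. Limma was tested on simulated data. Figures used matplotlib 3.10.9.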

Additional observations from a re-analysis of the deposited data

How the results depend on the processing

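No member passed an adjusted p of 0.05 in limma under any alternative run (smallest 0.513 in ameloblasts, 0.589 in the stratum intermedium and 0.191 for the difference between layers), so changes of sign below concern differences within their error, and their cause was not tested. The number of genes past the threshold stayed at 0 except without WT replicate 2 (WT5), where Tcap passed in ameloblasts, and for the difference between layers Tcap passed with Depp1, giving ranges of 0 to 1 and 0 to 2; these genes were named after their values were seen. In ameloblasts, Stim2 turned to -0.03 under quantile normalization and scaling to the same total and to -0.01 with library weights, Orai1 to -0.20 with library weights, and Atp2b1 to -0.06 with sex as a covariate, where the difference is that of KO9. In the stratum intermedium, Stim2 turned to 0.02 with the same total, 0.10 with sex and 0.003 with library group, Itpr2 to -0.17 with library weights and -0.19 with library group, and Atp2a2 to 0.01 and 0.003. For the difference between layers, Slc8a1 turned to -0.03 with a pseudocount of 8, -0.02 under quantile normalization, -0.04 with the same total and -0.02 with library weights, Stim2 to -0.01 and -0.05 under those scalings, and with sex Orai1 turned to 0.80 and Itpr1 to -0.31.

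Leaving out 1 library in turn gave, in ameloblasts, -0.37 to 0.39 for Stim2, -0.22 to 0.56 for Orai1, -0.62 to 0.27 for Itpr1, -0.54 to 1.17 for Itpr3, -0.18 to 0.66 for Atp2a2, -0.08 to 0.93 for Atp2b1 and -0.22 to 1.08 for Slc8a1. In the stratum intermedium it gave -0.29 to 0.01 for Stim1, -0.11 to 0.08 for Stim2, -0.71 to 0.41 for Orai3, -0.38 to 0.69 for Itpr2, -0.29 to 0.13 for Atp2a2 and -0.89 to 0.35 for Atp2b1. For the difference between layers it gave -0.26 to 0.31 for Stim2, -0.49 to 0.22 for Orai1, -0.46 to 0.19 for Orai3, -0.18 to 0.73 for Itpr1, -0.004 to 1.36 for Itpr3, -0.32 to 0.96 for Atp2a2, -0.43 to 1.82 for Atp2b1 and -0.54 to 0.61 for Slc8a1. Where 1 WT library remained it was assumed to vary like the KO libraries.

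With the replicate number as a block (replicate block), 0 genes passed in either layer, and Stim1 in the stratum intermedium turned to 0.01. Same-numbered WT and KO libraries did not deviate together (r of 0.086 and -0.116 in ameloblasts, -0.186 and -0.133 in the stratum intermedium), so the numbers were not taken to pair them. Those of the same library group gave r of 0.116 and 0.273 in ameloblasts and 0.006 and 0.186 in the stratum intermedium. With 2 WT libraries their deviations mirror each other, so these values are not separate checks. With library group as a block, Itpr1 in ameloblasts went from -0.12 to -0.62 and Itpr2 from -1.08 to -0.65.

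The layer differences were stable in sign for the 5 members named as common to all pairs when a prefix was left out, an alternative chosen after the data were seen: 1.96 to 2.5 for Atp2b1, 1.57 to 2.12 for Itpr3, 0.77 to 1.2 for Itpr1, 0.55 to 0.67 for Stim2 and -2.34 to -2.04 for Slc8a1. As deposited, without centring, 2 members were lower in all 5 pairs, Orai3 being added. With levels as shares of each library, 3 were higher in all 5 and the mean of Stim2 was 0.35.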

Other observations

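Some genes outside the 10 members, named after their values were seen, differed between layers in 1 direction in all 5 pairs. Of all genes, 11.1% were higher in ameloblasts in all 5 and 9.96% lower. In the lists these genes came from, 2 of 5 sodium calcium exchangers were higher in all 5 and 0 lower. For calcineurin and NFAT genes it was 2 and 1 of 11, and for partners of store-operated entry 3 and 3 of 16. Slc24a3, which encodes a potassium-dependent sodium calcium exchanger related to the one used by maturing ameloblasts, stood at 617 and 332.5 in WT10 and WT5 ameloblasts and at 883, 427.5 and 168 in KO1, KO3 and KO9. In the stratum intermedium it stood at 141, 256, 80.7, 144 and 36.6 in the same order, a mean difference of 2.08 ± 1.1 (SD, n = 5). Rcan2, an inhibitor of calcineurin, was higher in ameloblasts in all 5 pairs by 1.95 ± 1.3 (SD, n = 5), and Homer2, a scaffold that binds IP3 receptors, by 1.21 ± 0.64 (SD, n = 5). Trpc6 was lower in ameloblasts in all 5 pairs, with 0 to 47.9 normalized counts there and 76.6 to 278 in the stratum intermedium.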
